A study of Mus musculus with 2 samples.

Results

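The genes of haem breakdown and iron handling, 10 in number, were followed through the myeloid cells of injured mouse muscle: *Hmox1*, *Blvra*, *Blvrb*, *Slc48a1*, *Hebp1*, *Fth1*, *Ftl1*, *Slc40a1*, *Tfrc* and *Slc11a1*. They were chosen by name, with earlier results of these data known, and all 10 were listed among the 13289 genes present in the count tables of both libraries. *Hmox1* transcripts were concentrated in few cells, and the cells richest in them, 6 of 414 monocytes and macrophages in Wt and 37 of 410 in Gata3KO, also held 58 of the 93 *Slc40a1* transcripts counted in Wt and 443 of the 485 in Gata3KO.

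Haem is cut open by haem oxygenase 1, the product of *Hmox1*, which releases iron, carbon monoxide and biliverdin. The biliverdin reductases encoded by *Blvra* and *Blvrb* turn biliverdin into bilirubin, and Slc48a1 carries haem out of the phagolysosome to the enzyme. Freed iron is stored in ferritin, built of the heavy chain Fth1 and the light chain Ftl1, or leaves the cell through ferroportin, the product of *Slc40a1* and the only known iron exporter of mammals. Iron enters through the transferrin receptor Tfrc, and Slc11a1 (Nramp1) pumps it out of the phagosome. Macrophages that clear red cells and dead muscle take on haem and myoglobin and use these genes together.

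The study compared C57BL/6 mice (Wt) with C57BL/6:Cx3cr1CRExGata3fl/fl mice (Gata3KO), in which Cre made under control of *Cx3cr1*, a gene of monocytes and macrophages, deletes the floxed gene of the transcription factor Gata3. The tibialis anterior muscle of mice of both genotypes had been injected with 50 µl of 10 µM cardiotoxin, a snake venom toxin that lyses muscle fibres, and was taken 4 days later. Zombie aqua-, Ly6G-, CD45+, CD11b+ cells, that is living leukocytes of the myeloid lineage without neutrophils, were sorted, and a droplet library of transcript 3' ends was made from 8000 loaded cells per genotype. There was 1 library per genotype, so no difference between genotypes was tested. The labels used here give neither the ages nor the number of animals behind a library.

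The tables held 3290 barcodes for Wt and 3434 for Gata3KO, and 990 and 650 of them had at least 500 UMIs (unique molecular identifiers, each a counted transcript), at least 200 genes and at most 10% mitochondrial UMIs. Libraries differed in depth: the median kept cell had 5836 UMIs in Wt and 13716 in Gata3KO. Only 2 barcode sequences occurred in both libraries. *Gata3* had 1 UMI among the monocytes and macrophages of each library, and a 3' tag does not show whether the floxed part is gone, so the label could not be checked on it. *Cx3cr1* was measured at 269 CPM (UMIs of a gene per 1000000 UMIs) in Wt and 385 CPM in Gata3KO. The kept cells fell into 8 clusters, built without the 10 genes and without a wider list of iron and haem genes. The monocytes and macrophages were 3 of them: cluster 1, macrophage-like and led by *Fabp5*, *Gpnmb* and *Spp1* (123 Wt and 207 Gata3KO cells); cluster 2, monocyte-like with *Ccr2* and interferon genes (235 and 43); and cluster 3, led by the early-response and chemokine genes *Cxcl2*, *Gdf15*, *Ier3* and *Tnf* (56 and 160). Monocyte transcripts were not confined to cluster 2. A list of monocyte genes summed to 3621 CPM in cluster 2 and 5619 CPM in cluster 3 of Wt, and to 6478 and 2383 CPM in Gata3KO. Cluster 4 was dendritic-like and cluster 6 mature dendritic-like, with *Ccr7* and *Fscn1*. Red cell transcripts were nearly absent: *Hbb-bs*, a haemoglobin gene, had 5 UMIs over all Wt barcodes and 19 over all Gata3KO barcodes.

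Of the 10 transcripts, 4 carry iron-responsive elements, hairpins that the iron regulatory proteins bind when iron is scarce. In the 5' untranslated region the element blocks translation, as in ferritin and ferroportin, and in the 3' untranslated region of *Tfrc* it protects the transcript from decay. For these genes the transcript level therefore need not follow the protein. The search took the loop CAGTGN on the transcribed strand, with the 5 bases before it pairing with the 5 bases after it (G with T allowed) and a C before the first of these, in the longest complete coding transcript of each gene. It found 1 match in the 5' region of *Fth1* (chr19:9982732-9982760, plus strand), *Ftl1* (chr7:45459779-45459807, minus strand) and *Slc40a1* (chr1:45925465-45925493, minus strand), and 4 in the 3' region of *Tfrc*, of which the nearest to the coding sequence lies at chr16:32631219-32631247 (plus strand; GRCm38, GENCODE annotation). These are shown because the ferritin genes, the exporter and the transferrin receptor share this element. The 5 haem genes and *Slc11a1* had no match. Capitals mark the loop of 6 bases.
Fth1: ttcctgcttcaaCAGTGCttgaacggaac
Ftl1: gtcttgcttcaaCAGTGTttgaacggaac
Slc40a1: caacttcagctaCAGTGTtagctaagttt
Tfrc: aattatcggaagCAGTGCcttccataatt
Among all genes such a match was held by 21 of 20233 5' regions (0.104%) and by 117 of 20796 3' regions (0.563%).

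In monocytes and macrophages as a whole, 6 of the 10 genes were higher in Gata3KO by 1.5-fold or more and none was lower by that much. Of 5898 genes at 20 CPM or more in at least 1 library, 5.04% were higher and 7.82% lower by that much. The median log2 ratio of the 10 genes was 0.74, against 0.04 over all those genes. The 6 were *Hmox1*, *Slc40a1*, *Tfrc*, *Slc48a1*, *Ftl1* and *Slc11a1*. A gene that reaches 20 CPM only in the library where it is high had to differ, which was so for 1 of the 6, *Tfrc*. The 10 genes were also chosen with earlier results of these data known, so the counts here are descriptions. Values below are UMIs of a gene summed over the cells of a library, scaled to CPM of those cells, and brackets hold 95% intervals for counting error only, which do not cover differences between cells or animals.

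Of the haem breakdown genes, *Hmox1* (chr8:75093621-75100589, plus strand) showed the widest gap. It stood at 120 CPM (110 to 131) in Wt and 738 CPM (719 to 759) in Gata3KO, a log2 ratio of 2.62 (2.49 to 2.75). The biliverdin reductases next in the pathway differed far less. *Blvra* was at 90.1 CPM in Wt and 110 in Gata3KO, a log2 ratio of 0.29 (0.11 to 0.47). *Blvrb* was at 223 and 262 CPM, a log2 ratio of 0.23 (0.12 to 0.34). Neither reached 1.5-fold.

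The haem transporter *Slc48a1* was at 69.7 CPM in Wt and 136 CPM in Gata3KO, a log2 ratio of 0.96 (0.78 to 1.15). *Hebp1*, which encodes a haem-binding protein, was at 107 and 159 CPM, a log2 ratio of 0.57 (0.42 to 0.73), just under 1.5-fold. Among the storage genes, *Ftl1* was at 9610 CPM in Wt and 17049 CPM in Gata3KO, a log2 ratio of 0.83 (0.81 to 0.84). *Fth1* was at 12245 and 17994 CPM, a log2 ratio of 0.56 (0.54 to 0.57). The ferritin genes were the highest of the 10 in all 8 clusters of each library, on a scale not divided by length, as suits 3' tags. *Ftl1-ps1*, a near copy of *Ftl1* that is listed as a gene of its own, held 412 and 547 CPM, and reads may have been split between the 2 copies.

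The exporter *Slc40a1* (chr1:45908068-45926523, minus strand) was sparse, with 93 UMIs in Wt and 485 in Gata3KO. This is 20.9 CPM (16.9 to 25.6) against 68.8 CPM (62.8 to 75.2), a log2 ratio of 1.72 (1.40 to 2.06). The importer *Tfrc* was the lowest of the 10 genes, at 8.09 CPM in Wt and 20.4 CPM in Gata3KO, a log2 ratio of 1.34 (0.80 to 1.91). *Slc11a1* was at 208 and 329 CPM, a log2 ratio of 0.66 (0.55 to 0.77). Export and import transcripts were thus both higher in the Gata3KO library.

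**Figure D1:**
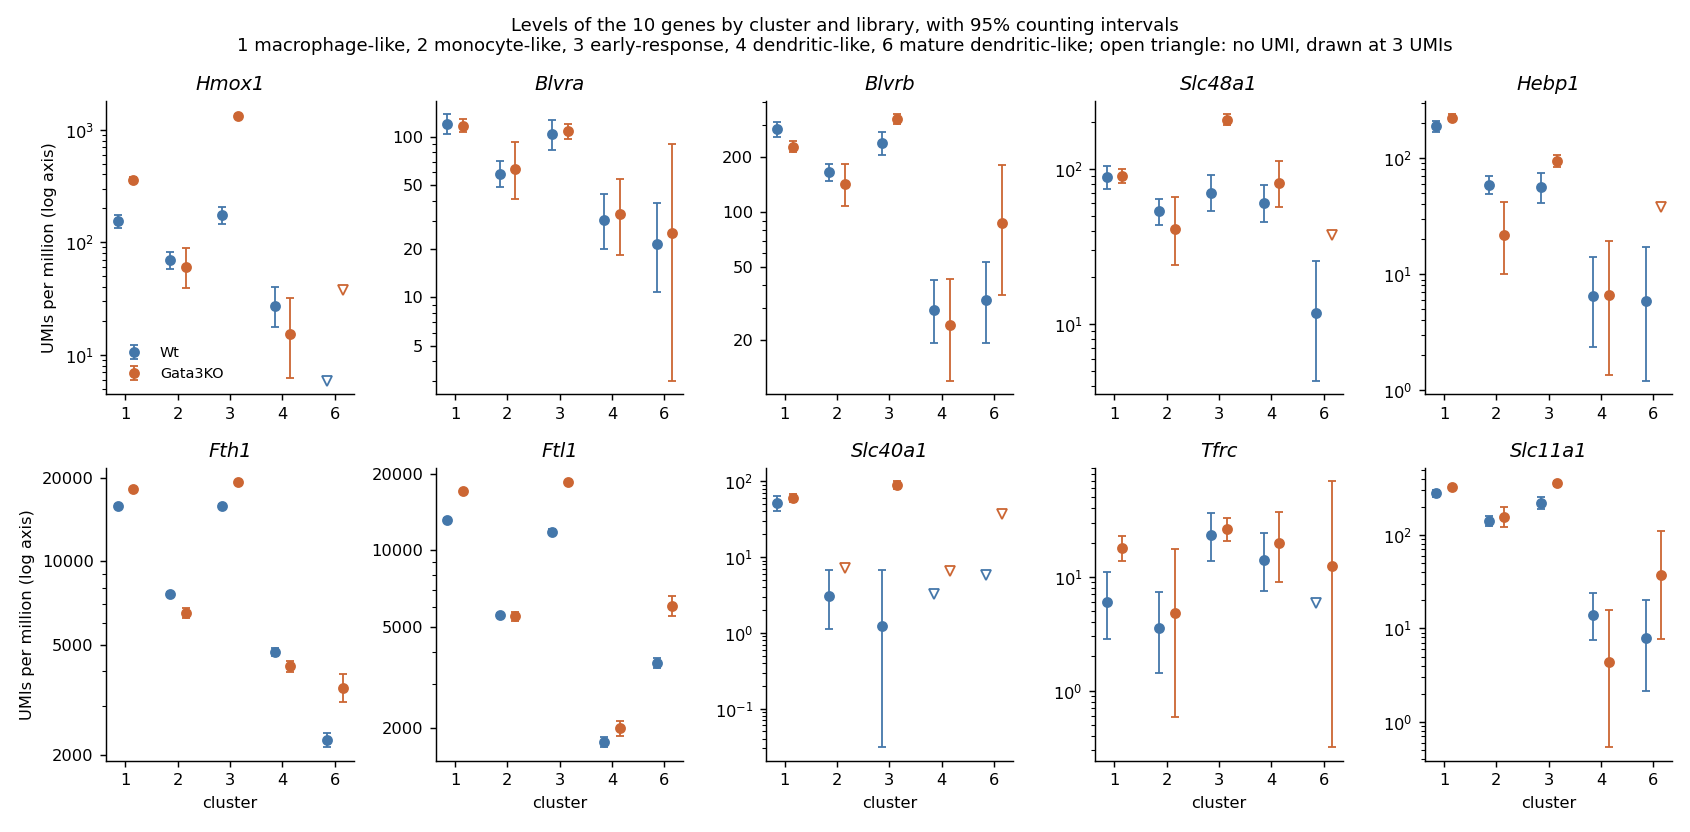
Level of each of the 10 genes in CPM (log axis) in clusters 1, 2, 3, 4 and 6 of the Wt and the Gata3KO library; bars are 95% counting intervals and open triangles mark sums of 0 UMIs, drawn at 3 UMIs. Hmox1 and Slc40a1 in cluster 3 show the widest gaps between libraries, and in dendritic-like clusters 4 and 6 Slc40a1 had no UMI in either library.

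The states did not share this difference evenly. In cluster 3, the early-response state, *Hmox1* was at 174 CPM (146 to 205) in Wt and 1333 CPM in Gata3KO, a log2 ratio of 2.94 (2.70 to 3.19). In cluster 1, the macrophage-like state, it was at 153 and 358 CPM, a log2 ratio of 1.23 (1.03 to 1.42). In cluster 2, the monocyte-like state, it was at 69.1 and 60.6 CPM, and the interval of the log2 ratio, -0.87 to 0.43, held 0. Cluster 3 contributed 73.7% of the *Hmox1* UMIs of Gata3KO monocytes and macrophages with 40.8% of their UMIs. In Wt it contributed 26.8% with 18.5%.

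*Slc40a1* had 1 UMI in the 56 Wt cells of cluster 3 and 258 in the 160 Gata3KO cells, or 1.22 CPM (0.0308 to 6.77) against 89.7 CPM (79.1 to 101). The log2 ratio there had an interval of 3.71 to 11.51. In cluster 1 the gene was at 51.4 CPM in Wt and 60.4 CPM in Gata3KO, with an interval of the log2 ratio, -0.13 to 0.61, that held 0. That value pools finer clusters that went opposite ways: in finer cluster 1 (led by *Npl* and *Lpcat2*, 86 Wt and 108 Gata3KO cells) *Slc40a1* was at 53.2 CPM in Wt and 89.1 CPM in Gata3KO, a log2 ratio of 0.74 (0.33 to 1.18), and in finer cluster 7 (led by *Mmp12*, 23 and 77 cells) it was lower in Gata3KO, at -3.51. In cluster 2 it had 6 UMIs in Wt and 0 in Gata3KO. Macrophage-like cluster 1 thus held 86 of the 93 *Slc40a1* UMIs of Wt, and in Gata3KO 227 lay there and 258 in early-response cluster 3. The UMIs of cluster 1 came from few cells, with up to 24 in a single Wt cell and up to 79 in a single Gata3KO cell. Finer cluster 1 had 181 Gata3KO UMIs in all, so its higher level in Gata3KO leans on few cells. Without the *Hmox1*-high cells described below, cluster 1 was at 18.9 CPM in Wt and 7.21 CPM in Gata3KO.

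*Slc48a1* followed the same division: it was at 70.5 and 209 CPM in cluster 3, a log2 ratio of 1.57, and at 88.5 and 90.5 CPM in cluster 1. *Ftl1* was higher in Gata3KO in clusters 1 (log2 ratio 0.37) and 3 (0.65) and level in cluster 2 (-0.02). *Slc11a1* was at 279 and 325 CPM in cluster 1 and at 222 and 357 CPM in cluster 3. *Tfrc* differed most in cluster 1, with 10 UMIs in Wt and 67 in Gata3KO (5.98 and 17.8 CPM), and was close in cluster 3 (23.1 and 26.1 CPM). In cluster 3, 6 of the 10 genes were higher in Gata3KO by 1.5-fold or more, against 13.3% of genes tested there, and *Slc40a1* reached 20 CPM only in Gata3KO. The make-up of cluster 3 differed by library. Finer cluster 2 (led by *Cxcl2* and *Gdf15*) took 24 of its 56 Wt cells and 151 of its 160 Gata3KO cells, and finer cluster 11 (led by *Hp*) took 28 and 5. Within finer cluster 2, 3 of the 10 genes were higher by that much, against 12.9%: *Hmox1* (178 and 1354 CPM), *Slc48a1* (71.6 and 213 CPM) and *Slc40a1* (1 and 258 UMIs). There too *Slc40a1* reached 20 CPM only in Gata3KO. In cluster 1, 1 of 9 measured genes was higher by 1.5-fold or more, against 3.78%. In cluster 2 this held for 0 of 8, against 11.6%, with 1 of the 8 lower, against 14.9%. Over all kept cells, dendritic-like and unnamed clusters included, 10 of 10 were higher, against 6.75%. *Slc40a1* (12.1 and 53.0 CPM) and *Tfrc* (12.4 and 23.5 CPM) reached 20 CPM there only in Gata3KO.

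The libraries also differed in how their monocytes and macrophages divided over the states, and monocyte-like cluster 2, where all 10 genes were lower than in cluster 1 in each library, held 235 Wt cells and 43 Gata3KO cells. When the 3 clusters were weighted alike, 3 of the 10 genes remained past 1.5-fold: *Hmox1* (log2 ratio 1.32), *Slc40a1* (1.19) and *Tfrc* (0.65). *Blvrb* was then at -0.03, *Hebp1* at -0.13 and *Fth1* at 0.09. With 7 finer clusters weighted alike, a class that takes in some cells of clusters 4 and 5, *Hmox1* (0.72) and *Tfrc* (0.86) remained, *Slc40a1* was at 0.15 and *Hebp1* at -0.96. The gene list of early response and heat shock summed to 2994 CPM in Wt and 4686 CPM in Gata3KO monocytes and macrophages, with 11 of 13 genes higher and none at 0. Within cluster 3 the same list summed to 9822 and 9024 CPM, with 3 of 13 genes higher. Other lists did differ within cluster 3. The macrophage list summed to 42092 CPM in Wt and 61559 CPM in Gata3KO, with 14 of 18 genes higher, and the resident-like list to 1707 and 4197 CPM, with 8 of 9 listed genes higher. The monocyte list summed to 5619 and 2383 CPM, with 11 of 12 lower, and the dendritic list to 8901 and 2459 CPM, with 10 of 12 lower and 2 and 4 genes at 0. The part of these lists in the *Hmox1* difference was not tested.

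**Figure D2:**
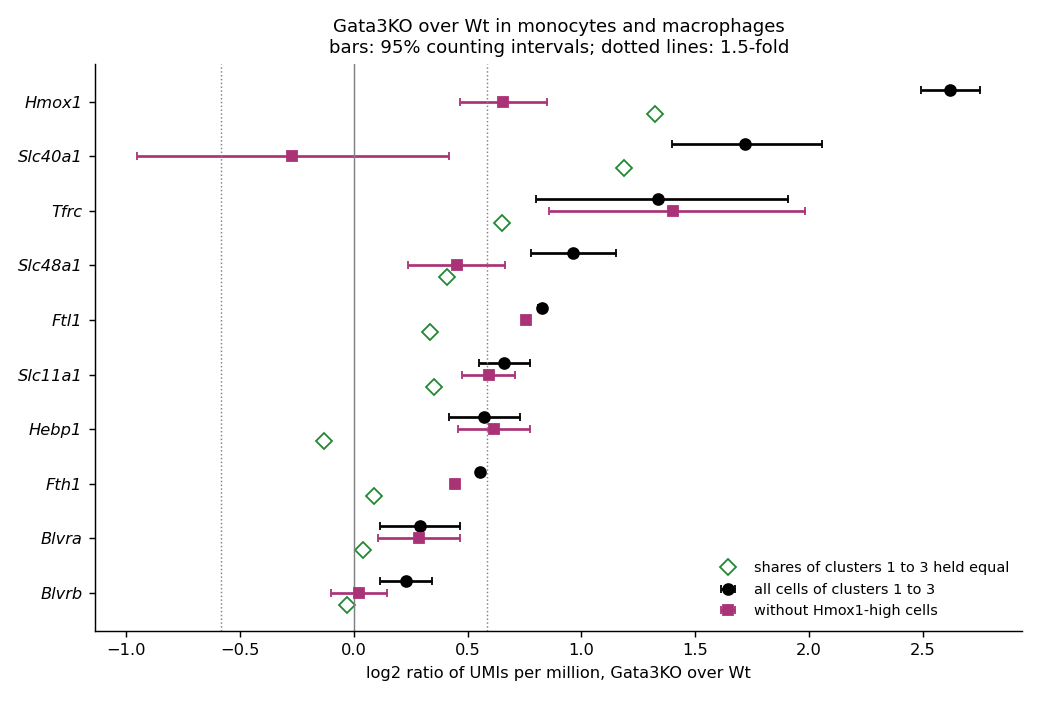
log2 ratio of CPM, Gata3KO over Wt, for the 10 genes in monocytes and macrophages: all cells (circles), without the Hmox1-high cells (squares), and with the 3 clusters weighted alike (diamonds); bars are 95% counting intervals and dotted lines mark 1.5-fold. Without the Hmox1-high cells Hmox1 moved from 2.62 to 0.66 and Slc40a1 from 1.72 to -0.27, and Tfrc from 1.34 to 1.40; the cells were left out by their own Hmox1 level, so the move of Hmox1 follows in large part from that choice.

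Finer clusters showed how far the members depended on the state. A finer cluster led by *Mmp12*, *Atp6v0d2* and *Fabp5* had the most ferritin transcript in Wt, with *Fth1* at 23430 CPM. Its 23 Wt and 77 Gata3KO cells had 3 of 10 genes lower in Gata3KO by 1.5-fold or more, against 12.6% of genes tested there. These were *Blvrb* (405 and 152 CPM), *Slc48a1* (138 and 79.4 CPM) and *Slc40a1* (44.0 and 3.87 CPM, 14 and 6 UMIs), and *Hmox1* was at 299 CPM in Wt and 207 CPM in Gata3KO. *Hebp1* (94.3 and 190 CPM) and *Tfrc* (1 and 36 UMIs) were the 2 of 10 that were higher, against 14%. *Slc40a1* reached 20 CPM there only in Wt and *Tfrc* only in Gata3KO, so both had to differ. A finer cluster with the resident-macrophage genes *Mrc1*, *Folr2* and *Pf4*, which drew 91 of its 130 cells from cluster 5 outside the class, had *Hmox1* at 201 CPM in Wt and 845 CPM in Gata3KO, and 6 of its 10 genes were higher in Gata3KO by 1.5-fold or more, against 13.3% of genes tested there. Of these, *Slc40a1* (5.52 and 48.0 CPM) reached 20 CPM only in Gata3KO. *Tfrc* was at its highest among the finer clusters of monocytes and macrophages here, at 35.0 and 49.6 CPM. A small finer cluster led by *Hp*, *Hspa1a* and *Ccl4* had 39 Wt and 21 Gata3KO cells. Its make-up differed by library: cluster 3 gave 28 Wt and 5 Gata3KO cells, and dendritic-like cluster 4 gave 6 and 15. In it 7 of 9 genes were lower in Gata3KO by 1.5-fold or more, against 22.8%. Of these, *Hebp1* (13 and 0 UMIs) reached 20 CPM only in Wt. *Fth1* was at 14676 CPM in Wt and 6602 CPM in Gata3KO. Over the whole of cluster 3 it was at 15871 and 19365 CPM, and over cluster 4 at 4699 and 4169 CPM. The ratios in this finer cluster thus set unlike mixtures of cells side by side.

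Within a library, *Hmox1* was spread very unevenly over cells. In Wt 282 of 414 cells had no *Hmox1* UMI, 121 had 1 to 9, 11 had 10 to 99 and 0 had 100 or more. In Gata3KO 138 of 410 had none, 224 had 1 to 9, 32 had 10 to 99 and 16 had 100 or more, up to 468 in a single cell. The 10% of cells with the most *Hmox1* carried 75.3% of its UMIs in Wt and 87.2% in Gata3KO. By comparison, the same share of cells carried 45.6% and 31.8% of the UMIs of *Blvra*, and 53.2% and 55.4% of those of *Slc48a1*. For the sparse genes it carried as much or more in Wt, with 100% for *Slc40a1* and for *Tfrc*. In Gata3KO these shares were 97.9% and 75%.

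Cells with at least 10 *Hmox1* UMIs per 10000 UMIs are called *Hmox1*-high here. The limit was set after the values were seen, within a continuous range, so this is a range of levels and not a cell type: 9 Wt cells and 14 Gata3KO cells lay between 5 and 20 per 10000. In Wt 6 of 414 cells (1.45%, 0.534 to 3.13%) and in Gata3KO 37 of 410 cells (9.02%, 6.43 to 12.2%; exact Clopper-Pearson) were *Hmox1*-high. At a limit of 5 they were 13 and 43 cells, and at a limit of 20 they were 4 and 29. The *Hmox1*-high cells held 38.6% of the *Hmox1* UMIs of Wt and 85.6% of those of Gata3KO monocytes and macrophages, with 1.65% and 10.1% of all UMIs. Left without them, *Hmox1* stood at 75.0 CPM (67.1 to 83.5) in Wt and 118 CPM (110 to 127) in Gata3KO, a log2 ratio of 0.66 (0.47 to 0.85). That value pools clusters of unequal share. In cluster 3 the remaining cells were at 163 CPM in Wt and 150 CPM in Gata3KO, a log2 ratio of -0.13 (-0.42 to 0.17). In cluster 1 the log2 ratio was 0.36 (0.07 to 0.66), and in cluster 2 it was 0.91 (0.18 to 1.60). Since the *Hmox1*-high cells were chosen by *Hmox1*, a smaller ratio without them follows in large part from the choice.

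**Figure D3:**
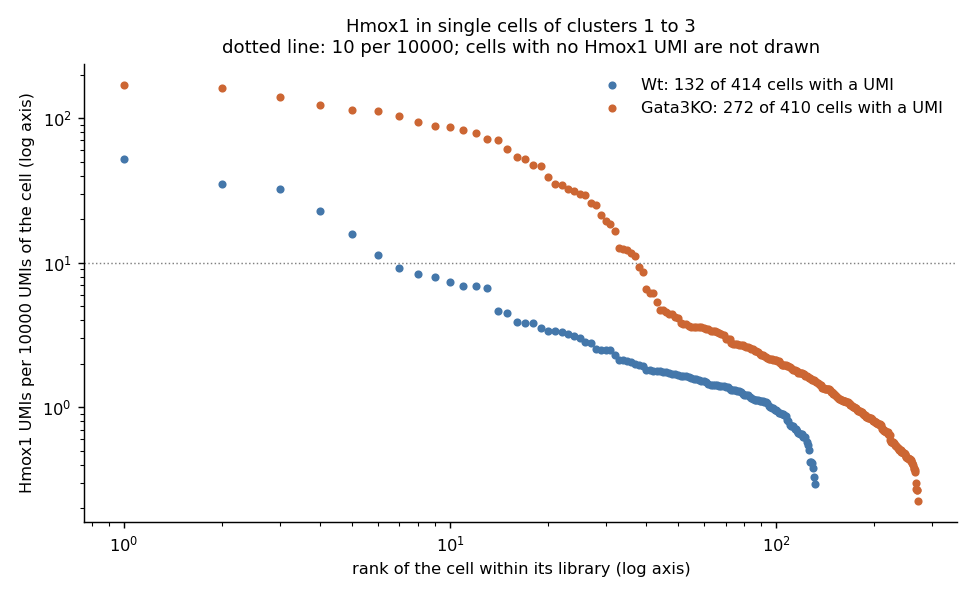
Hmox1 UMIs per 10000 UMIs of each cell of clusters 1 to 3 that had any, ranked from high to low within its library (both axes log; 132 of 414 Wt and 272 of 410 Gata3KO cells); the dotted line marks 10 per 10000. The Gata3KO curve stays above 10 for 37 cells and the Wt curve for 6.

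The share differed at equal depth too. After each cell was thinned to 2000 UMIs, with 23 Wt and 26 Gata3KO shallower cells left out, 7 of 391 Wt cells (1.79%, 0.723 to 3.65%) and 32 of 384 Gata3KO cells (8.33%, 5.77 to 11.6%) had 3 or more *Hmox1* UMIs. Over all kept cells, of any type, the thinned counts were 10 of 801 in Wt (1.25%) and 34 of 575 in Gata3KO (5.91%). The barcodes that the mitochondrial limit had removed, also of any type, showed a smaller gap in the same direction. Their counts were 12 of 1288 (0.932%, 0.482 to 1.62%) in Wt and 43 of 2178 (1.97%, 1.43 to 2.65%) in Gata3KO, and these intervals overlap. *Hmox1*-high cells had a median of 13206.5 UMIs in Wt and 19189 in Gata3KO, against 8672 and 16664 in the other cells. As a measure of free RNA, mature dendritic-like cluster 6 had 0 *Hmox1* UMIs in 71 Wt cells, which allows a share of up to 5.06%. It had 0 in 10 Gata3KO cells, and the median depths were 6900 and 7649.5 UMIs. Dendritic-like cluster 4 had an *Hmox1* UMI in 7 of 111 Wt and 6 of 45 Gata3KO cells, at 27.1 and 15.4 CPM and median depths of 8301 and 11056 UMIs.

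By state, 29 of the 37 *Hmox1*-high Gata3KO cells lay in cluster 3 and 8 in cluster 1. They made up 18.1% (12.5 to 25.0%) of the 160 Gata3KO cells of cluster 3, against 1 of 56 Wt cells there (1.79%, 0.0452 to 9.55%). In cluster 1 they were 8 of 207 Gata3KO cells and 3 of 123 Wt cells, 3.86% (1.68 to 7.47%) and 2.44% (0.506 to 6.96%), which overlap. Within finer cluster 2 they were 0 of 24 Wt cells (0 to 14.2%) and 28 of 153 Gata3KO cells (18.3%, 12.5 to 25.4%), which overlap too. In finer cluster 1 they were 2 of 86 Wt and 4 of 108 Gata3KO cells. Finer cluster 7 had 1 of 23 and 1 of 77, and finer cluster 11 had 2 of 39 and 1 of 21. In the finer cluster with *Mrc1* and *Folr2* they were 3 of 39 (7.69%) and 9 of 91 (9.89%).

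The *Hmox1*-high cells carried much of the pathway with them, in each library. *Slc40a1* was at 791 CPM (601 to 1023) in the *Hmox1*-high Wt cells and 8.0 CPM (5.57 to 11.1) in the other Wt cells. In Gata3KO it was at 620 CPM (564 to 681) and 6.63 CPM (4.78 to 8.97). These cells held 58 of the 93 *Slc40a1* UMIs of Wt and 443 of the 485 of Gata3KO. A *Slc40a1* UMI was found in 4 of 6 and 26 of 37 *Hmox1*-high cells, and in 13 of 408 and 25 of 373 others. Among those others the *Slc40a1* log2 ratio between the genotypes was -0.27, with an interval (-0.95 to 0.42) that held 0. Within cluster 1 the others had it lower in Gata3KO, at 7.21 against 18.9 CPM.

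The haem transporter *Slc48a1* was 7.60-fold higher in the *Hmox1*-high than in the other Wt cells (477 against 62.8 CPM) and 6.73-fold higher in Gata3KO (578 against 85.9 CPM). *Blvrb* was 4.66-fold and 3.20-fold higher, at 982 against 211 CPM and 685 against 214 CPM. With these cells left out, *Blvrb* was level between the genotypes, with a log2 ratio of 0.02 (-0.10 to 0.15). The ferritin genes were higher too, by 3.08-fold and 2.16-fold for *Fth1* and by 3.32-fold and 1.89-fold for *Ftl1*. In the *Hmox1*-high cells their levels were close in the libraries, with *Fth1* at 36463 CPM in Wt and 34754 CPM in Gata3KO. *Slc11a1* was 3.56-fold and 1.91-fold higher.

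The other 3 genes were not higher in these cells beyond counting error. *Blvra* was at 123 CPM in the *Hmox1*-high and 89.6 CPM in the other Wt cells, and at 119 and 109 CPM in Gata3KO, and both intervals of the log2 ratio (-0.69 to 1.39 and -0.22 to 0.45) held 0. *Hebp1* was at 81.8 and 107 CPM in Wt and lower in the *Hmox1*-high Gata3KO cells, at 112 against 164 CPM. *Tfrc* had 1 UMI in the *Hmox1*-high Wt cells and 10 in those of Gata3KO, and its log2 ratio between the genotypes in the other cells was 1.40 (0.86 to 1.98), near the 1.34 of all cells. The *Hebp1* log2 ratio in the other cells was 0.61, against 0.57 in all.

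**Figure D4:**
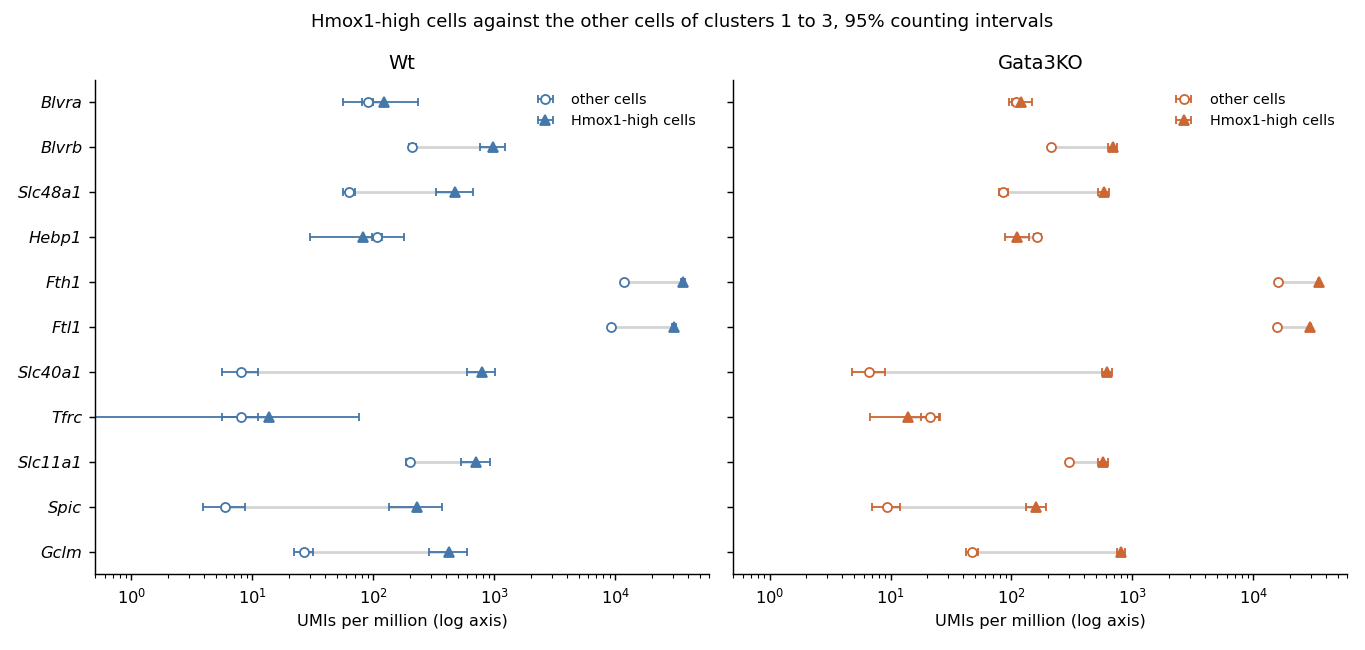
Levels in CPM (log axis) in the Hmox1-high cells (triangles) and the other cells (open circles) of clusters 1 to 3 for the other 9 members, Spic and Gclm, in Wt (6 and 408 cells) and Gata3KO (37 and 373 cells); bars are 95% counting intervals. Slc40a1, Spic, Gclm, Slc48a1, Blvrb, the ferritin genes and Slc11a1 lie to the right in Hmox1-high cells of both libraries. The intervals of Blvra and Tfrc overlap, and Hebp1 lies to the left, with overlapping intervals in Wt.

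*Hmox1* itself chose these cells, so its level in them is no result. Other genes that marked the *Hmox1*-high cells were ranked by their log2 ratio to the other cells with 20 CPM added, among genes at 100 CPM or more. Of the top 20 in each library, 9 were common to both: *Slc40a1*, *Gclm*, *Spic*, *Slc48a1*, *Clec4n*, *Clec4d*, *Prdx1*, *Blvrb* and *Ptgr1*. *Spic* encodes the transcription factor of iron-recycling macrophages of spleen and marrow, which haem induces. It was at 232 CPM (135 to 371) in *Hmox1*-high and 5.94 CPM in other Wt cells, and at 161 CPM (133 to 193) and 9.32 CPM in Gata3KO. *Gclm*, a subunit of the enzyme that starts glutathione synthesis, was at 423 and 26.5 CPM in Wt and at 805 and 47.2 CPM in Gata3KO. *Prdx1*, a peroxide-reducing enzyme, was at 5893 and 1245 CPM and at 3678 and 1097 CPM. The chemokine receptor gene *Ccr2* of recruited monocytes was lower, at 54.6 against 551 CPM in Wt and 61.6 against 274 CPM in Gata3KO. The Wt set also held *Cxcl9* (1610 against 165 CPM), a gene of the interferon response, which had no UMI in the Gata3KO set. The 6 Wt cells are few, and a gene high in 1 of them can enter its list.

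The share of cells with a UMI gave the same order of genotypes. At 2000 UMIs per cell, 43 of 391 Wt (11%, 8.07 to 14.5%) and 101 of 384 Gata3KO monocytes and macrophages (26.3%, 22 to 31.0%) had an *Hmox1* UMI. Without thinning these shares were 31.9% and 66.3%. *Slc40a1* was found in 8 of 391 (2.05%) and 24 of 384 (6.25%) thinned cells. In dendritic-like cluster 4 it was found in 0 of 109 Wt and 0 of 40 Gata3KO cells, where 3 cells, the floor used for 0, would be 2.75% and 7.5%. *Hmox1* was found there in 2 of 109 and 1 of 40 cells. *Slc11a1* was found in 34.0% and 46.1%, and in 1 of 109 and 0 of 40 dendritic-like cells.

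Of a wider list of 55 iron and haem genes, chosen with earlier results of these data known, 47 were in both tables and 29 were measured at 20 CPM or more. Of these, 6 were higher in Gata3KO by 1.5-fold or more and 2 lower, with a median log2 ratio of 0.19, beside 5.04% and 7.82% and a median of 0.04 over all genes. Of the 6, *Spic*, *Fech* and *Steap3* (16.9 and 26.3 CPM) reached 20 CPM only in Gata3KO, and of the 2 lower, *Hp* did so only in Wt. The 4 highest were *Spic* (9.67 and 24.7 CPM, log2 ratio 1.35), *Lrp1*, the receptor for haem bound to haemopexin (345 and 598 CPM, 0.79), *Fech*, which inserts iron into haem (13.3 and 21.9 CPM, 0.72), and the haem exporter *Flvcr1* (23.4 and 38.2 CPM, 0.71). *Spic* had 115 of its 174 Gata3KO UMIs and 17 of its 43 Wt UMIs in *Hmox1*-high cells. The 4 lowest were *Hp*, haptoglobin (55.3 and 11.1 CPM, -2.32), *Keap1*, which holds back Nfe2l2 (75.1 and 41.9 CPM, -0.84), *Alas1*, the first enzyme of haem synthesis (83.4 and 62.9 CPM, -0.41), and *Hmox2*, the constitutive haem oxygenase (160 and 130 CPM, -0.29). The *Hp* log2 ratio was 1.06 in cluster 1, 1.91 in cluster 2 and -4.54 in cluster 3. *Flvcr1* was at 0.48, -0.12 and 0.56 in clusters 1, 2 and 3, and *Steap3* at 0.40, 0.30 and 0.57, past 1.5-fold in none.

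Known regulators of the 10 genes had smaller ratios than *Hmox1*. *Nfe2l2* encodes the transcription factor Nrf2, which switches on *Hmox1*, the ferritin genes and *Gclm*. In the pooled cells *Nfe2l2* was at 180 CPM in Wt and 274 CPM in Gata3KO, a log2 ratio of 0.61 (0.49 to 0.73), past 1.5-fold. Within clusters 1, 2 and 3 its log2 ratio was 0.31, 0.18 and 0.28, past 1.5-fold in none of them. *Bach1*, which encodes a repressor of the same genes that haem releases, was at 132 and 153 CPM (0.22). The iron regulatory proteins *Aco1* and *Ireb2*, which bind the elements shown above, had log2 ratios of 0.39 (0.01 to 0.77) and 0.00 (-0.32 to 0.33). *Ncoa4*, which delivers ferritin to the lysosome, had 0.25. *Cd163*, the receptor for haemoglobin bound to haptoglobin, was near absent, with 7 UMIs in Wt and 3 in Gata3KO, and none of these lay in an *Hmox1*-high cell.

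Across 14 sums of cells (clusters with at least 20 cells of a library), the genes whose log2 level was most like that of *Hmox1* were *Vps26a* (Pearson r = 0.95), *Atp6v1a*, *Nceh1*, *Rragc* and *Igf1* (0.91), among 5042 genes. Those most like *Slc40a1* were *Cd5l* (0.92), *Dnase1l1*, *Creg1*, *Gdpd1* and *Cela1* (0.83). *Hmox1* and *Slc40a1* had an r of 0.77 with each other. The sums share libraries and depth, so these values are descriptions. The order depended on the setting: with 1 CPM added the first were *Pgd* (0.96) and *Mfsd1* (0.89), and over 24 sums of finer clusters *C5ar1* (0.88) and *Cela1* (0.77).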

How the data were processed

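Each library was deposited as 1 table of raw UMI counts, genes by barcodes; the values are whole numbers and unnormalized. The submitters' processing notes name the tools Seurat 3.0.2, Cell Ranger 3.0.1 and R 3.6.1 and the build mm10, while settings and any cell filter are stated in none of the sources used here. The lists, the 10 genes and the design were chosen with earlier results of these data known.

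Cells were kept at 500 or more UMIs, 200 or more genes and at most 10% mitochondrial UMIs. The 2 libraries were pooled and clustered, with no integration step, on 2000 variable genes that left out the 10 genes and the wider list (scanpy 1.11.5; 30 principal components; 15 neighbours; Leiden resolution 0.6, leidenalg 0.10.2; finer clusters at 1.2). A cluster entered the monocytes and macrophages where its monocyte, macrophage or resident-like marker score (the mean over a list of z-scores across clusters) was at least 0.35 and above the dendritic, fibroblast, muscle and cycling scores. Cluster 0 (low UMIs), cluster 5 (collagen and cycling genes mixed) and cluster 7 (muscle transcripts) stayed unnamed. Scrublet called 1 Wt and 4 Gata3KO cells, which in Wt is too few to count as a working call, and they were left in.

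UMIs were summed per library and cluster and given as CPM. Intervals at the 95% level are exact Poisson (sums), conditional binomial (ratios) and Clopper-Pearson (shares; scipy 1.17.1), for counting error only, and 3 counts served as the floor for 0. With 1 library per group no test and no p-value was made; a gene was called past 1.5-fold. The ratio step was tested on simulated Gata3KO and Wt counts of 2841 genes: the interval lay on the true side of 0 for 67 of 67 genes at 1.5-fold, 67 of 67 at 2-fold and 66 of 66 at 4-fold, and 95.6% of intervals held the true value. Differences between cells were not simulated.

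Named genes are the 10 members, the 4 highest and 4 lowest of the wider list, named regulators, and the 5 genes most like *Hmox1* and *Slc40a1* in log2(CPM + 10) among genes at 50 CPM or more. Genes that mark *Hmox1*-high cells were chosen after their values were seen. Coordinates and untranslated regions are from GENCODE vM21 on GRCm38. Of the alternatives, 17 were planned and 3 (cluster 3 left out, finer clusters weighted alike, *Hmox1*-high cells left out) were added after seeing the data.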

Additional observations from a re-analysis of the deposited data

Results flagged for a closer look

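For 3 of the genes the difference between genotypes ran in opposite directions in 2 of the states; none of these differences between states was tested. The *Blvrb* log2 ratio, Gata3KO over Wt, was 0.44 in early-response cluster 3 and -0.31 in macrophage-like cluster 1. The *Hebp1* log2 ratio was 0.25 in cluster 1 and 0.76 in cluster 3, against -1.43 in monocyte-like cluster 2, where it rested on 115 Wt and 9 Gata3KO UMIs. The *Fth1* log2 ratio was 0.20 in cluster 1 and 0.29 in cluster 3, against -0.22 in cluster 2, where the level was 7587 CPM in Wt and 6505 CPM in Gata3KO.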

How the results depend on the processing

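Of the 6 genes past 1.5-fold, *Hmox1* stayed past it in 18 of 18 alternatives (0.66 to 2.80), as did *Tfrc* (0.61 to 1.82), *Slc40a1* in 16, and *Slc48a1*, *Ftl1* and *Slc11a1* in 13 each. The other 4 passed it in some: *Hebp1* in 10, *Fth1* in 6, and *Blvra* and *Blvrb* in 1 each. Without the *Hmox1*-high cells *Slc40a1* was at -0.27 and the median of the 10 genes was 0.52. With finer cluster shares held equal, *Blvra* was at -0.13, *Blvrb* at -0.41, *Hebp1* at -0.96, *Fth1* at -0.0865, *Ftl1* at -0.0190 and *Slc11a1* at -0.0271; 2 of the 10 genes were higher and 1 lower by 1.5-fold, their median was -0.0231, and of the wider list 2 were higher with a median of 0.0421. With the shares of the 3 clusters held equal, *Blvrb* was at -0.0281 and *Hebp1* at -0.13, 3 genes were higher and the median was 0.34. *Blvrb* was also at -0.10 under stricter limits of 1000 UMIs and 5% mitochondrial share (median of the 10 genes 0.51) and at -0.000765 without cluster 3, where 1 gene of the wider list was lower. Over every deposited barcode 3 of the 10 genes were higher (median 0.49) and the median of the wider list was -0.0493; over all kept cells 10 of 10 were higher (median 0.92), beside 6.75% of all genes. The median of the 10 genes was 0.43 at resolution 0.3, where 1 gene of the wider list was lower, 0.88 with every cell weighted alike, where 10 of the wider list were higher, and 0.89 with cells thinned to 2000 UMIs. With no limit on CPM 13 of the wider list were higher and 4 lower, and at 100 CPM 2 were higher and 0 lower. No paired analysis was possible because each group has 1 library and no ratio comes from a test. The causes of these shifts were not tested. The median-of-ratios scaling moved all ratios by 0.0044, and depth limits *Tfrc* and, outside the *Hmox1*-high cells, *Slc40a1*.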
